A study of Mus musculus with 2 samples.

Results

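The extracellular matrix of the colon is cut and remodelled by families of secreted and membrane-bound proteases. Matrix metalloproteinases (MMPs) are zinc enzymes made as inactive precursors that, once activated, cut collagens, laminins, fibronectin and many cell-surface proteins. ADAMTS enzymes are secreted relatives with thrombospondin repeats; some trim the amino propeptide of fibrillar procollagens and others cut large proteoglycans such as versican and aggrecan. Tissue inhibitors of metalloproteinases (TIMPs) bind the active site of MMPs and of several ADAMTS enzymes, and Reck is a membrane-anchored inhibitor of MMPs. The genes described here are those whose symbols are Mmp, Timp or Adamts followed by a number, together with Adamdec1, Adam23, Reck and Pcolce2. They numbered 50 of the 33083 genes listed in the files: 23 Mmp, 19 Adamts and 4 Timp genes and those 4 others.

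The study made single-cell RNA libraries from the colon of transgenic Alzheimer's disease (AD) model mice, named APP/PS1-21 in the design text, and of wild-type (WT) mice. APP/PS1-21 is a line in which mutant human amyloid precursor protein and presenilin are driven in neurons by a Thy1 promoter. There was 1 library per genotype, and the labels used here give neither age, sex nor the number of animals behind a library. Values therefore have no spread between animals: no p-value is given, every interval is a 95% interval for counting error only, and a difference between the libraries cannot be told apart from a difference between 2 preparations.

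The AD library held 6675 barcodes with 38731915 unique molecular identifiers (UMIs, each standing for a counted RNA molecule), and the WT library held 4146 barcodes with 26898149 UMIs. Barcodes over 25% mitochondrial UMIs made up 29.2% of the AD library and 60.4% of the WT library. After filtering, 4688 AD and 1547 WT cells remained, with medians of 3720 and 3722 UMIs, and the libraries shared 7 barcodes. Clusters were named from marker genes and made without the 50 protease and inhibitor genes, so that none of them defined a class. Fibroblast-like cells numbered 651 in AD and 211 in WT, macrophage-like cells 200 and 55, endothelial-like cells 83 and 101, and epithelial-like cells 1541 and 552. The design text speaks of colonic epithelium, and most kept cells in both libraries were of other classes. RNA of plasma cell markers was seen in each of these 4 classes at higher levels in the AD library, at 7319 against 492 CPM (UMIs of a gene per 1000000 UMIs of the class) in fibroblast-like cells, 11912 against 308 CPM in macrophage-like cells, 21029 against 531 CPM in endothelial-like cells and 4754 against 508 CPM in epithelial-like cells.

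Of the 50 genes, 35 had at least 30 UMIs over the kept cells of both libraries, 11 had 1 to 29 UMIs and 4 had none. The 4 at 0 were Timp1, Timp3 and Timp4, which are 3 of the 4 TIMP inhibitors, and Mmp19, a matrix metalloproteinase. They were at 0 in all 10821 barcodes, filtered or not, which by counting alone would allow at most 0.0775 CPM in the AD library and 0.112 CPM in the WT library. In the GENCODE M21 annotation each of the 4 lies wholly inside a gene on the other strand: Timp1 in Syn1, Timp3 in Syn3, Timp4 in Syn2 and in Gm17482, and Mmp19 in Gm47093. Such a place in the annotation went with a count of 0 across the whole table. Of 652 protein-coding genes lying inside a gene on the other strand, 650 (99.7%) were at 0, and so were 247 of 254 (97.2%) lying inside a gene on the same strand. Of 14592 protein-coding genes with no overlap 1380 (9.46%) were at 0, and of 6012 that partly overlapped or held another gene 158 (2.63%) were.

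**Figure D1:**
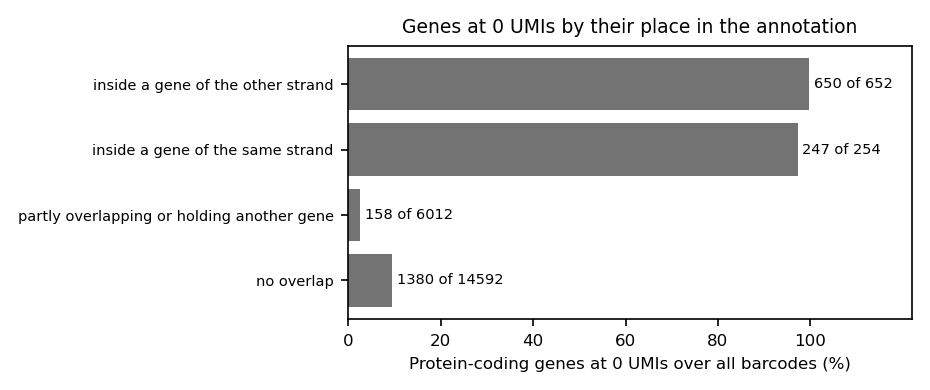
Share of protein-coding genes with 0 UMIs over all 10821 barcodes of both libraries (horizontal axis, percent), by their place in the GENCODE M21 annotation (vertical axis), with the number of genes beside each bar. Genes lying wholly inside another gene, as Timp1, Timp3, Timp4 and Mmp19 do, were at 0 in 99.7% and 97.2% of cases on the other and the same strand, against 9.46% of genes with no overlap.

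The surrounding synapsin genes, which encode synaptic vesicle proteins, did have UMIs. Over all barcodes Syn1 had 87 UMIs in AD and 53 in WT, Syn2 had 345 in AD and 258 in WT, and Syn3 had 398 in AD and 188 in WT. The zeros of Timp1, Timp3, Timp4 and Mmp19 are thus given as listed zeros, with no statement on expression, and the inhibitor side of the family rests on Timp2 and Reck. Gelatinase A (Mmp2), which cuts denatured collagen and type IV collagen, was also sparse, with 35 UMIs in AD and 10 in WT over all barcodes. It overlaps no other gene in that annotation, and the cause of its low count was not tested.

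Fibroblast-like cells carried most of the RNA of the family. Of all UMIs of the 50 genes in kept cells, 67.7% (67.0 to 68.3%) in AD and 65.4% (64.3 to 66.5%) in WT lay in fibroblast-like cells, from 20292 and 7437 UMIs. Without Adamdec1, the gene with the most UMIs, the shares were 63.0% in AD and 58.9% in WT. Epithelial-like cells held 14.2% in AD and 13.8% in WT, macrophage-like cells 3.41% and 2.99%, and endothelial-like cells 1.86% and 4.30%. The family made up 5193 CPM of fibroblast-like RNA in AD and 4990 CPM in WT. The summed level was 902 CPM in AD and 658 CPM in WT for macrophage-like cells, 1604 CPM in AD and 994 CPM in WT for endothelial-like cells, and 158 CPM in AD and 121 CPM in WT for epithelial-like cells. Some classes outside these 4 had higher sums than endothelial-like cells. Smooth-muscle-like cells had 1941 CPM in AD and 2019 CPM in WT. Glia-like cells had 3720 CPM in the 3 AD cells and 2518 CPM in the 35 WT cells.

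**Figure D2:**
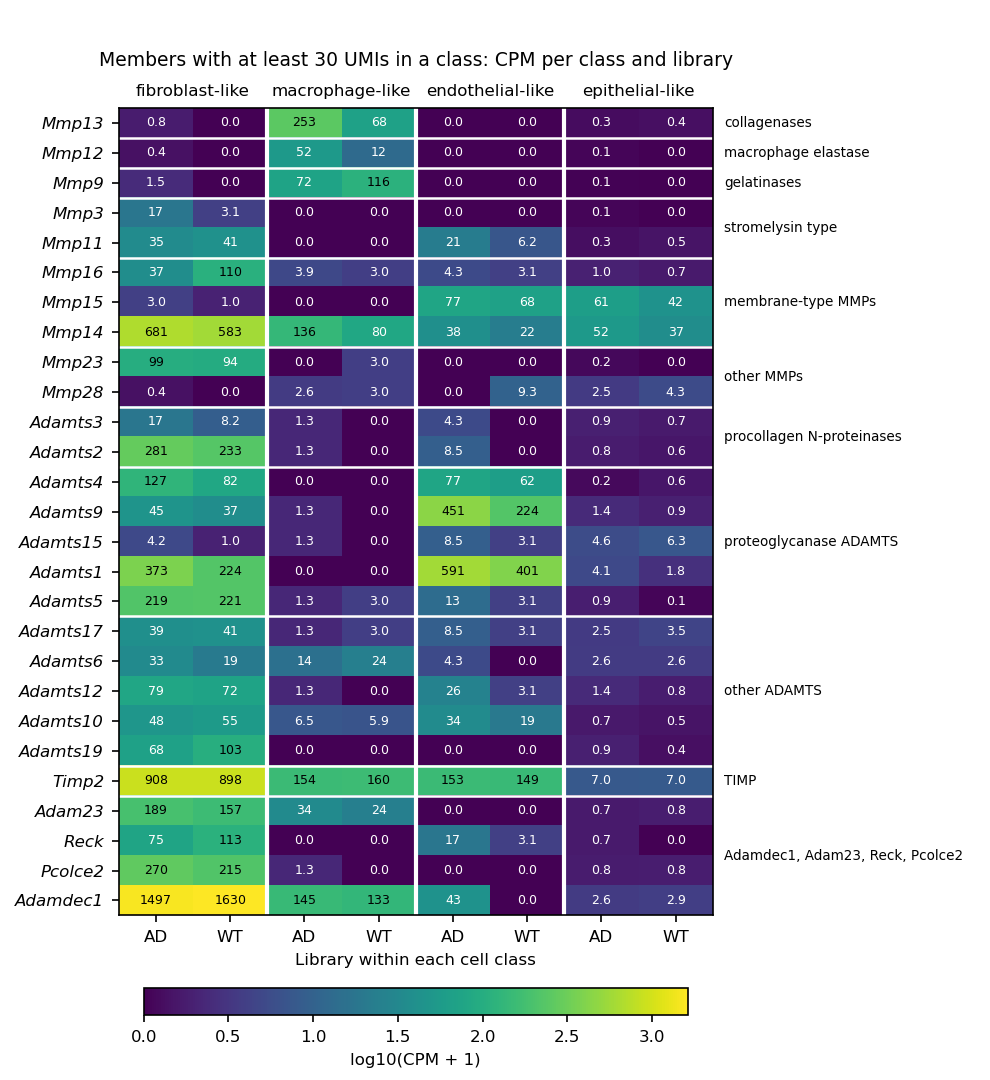
CPM of the 27 members with at least 30 UMIs over both libraries in at least 1 of the 4 classes (rows, grouped by role), in each class and library (columns, AD left of WT); colour is log10(CPM + 1). Mmp13, Mmp12 and Mmp9 stand out in macrophage-like cells, Mmp15 in endothelial-like and epithelial-like cells, Adamts9 and Adamts1 in endothelial-like cells, and Timp2, Mmp14 and Adamdec1 in fibroblast-like cells.

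Among the inhibitors, Timp2 was the measured TIMP in all 4 classes, and its level was close between the libraries in each of them. In fibroblast-like cells Timp2 had 908 CPM (872 to 945) in AD and 898 CPM (840 to 960) in WT, from 2400 and 876 UMIs. The log2 ratio of AD over WT was 0.01 (-0.10 to 0.13). Timp2 was found in 575 of 651 AD and 188 of 211 WT fibroblast-like cells, or 88.3% and 89.1%, at median depths of 3578 and 4508 UMIs per cell. B-like cells, taken as a class expected to lack it, had a Timp2 UMI in 1.52% of 461 AD and 0.442% of 226 WT cells, at median depths of 1991 and 2498 UMIs. The log2 ratios of Timp2 in the other classes were -0.06 (-0.53 to 0.44) in macrophage-like, 0.04 (-0.63 to 0.69) in endothelial-like and -0.02 (-0.47 to 0.45) in epithelial-like cells. Reck had 74.9 CPM (64.8 to 86.1) in AD and 113 CPM (92.7 to 136) in WT fibroblast-like cells, a log2 ratio of -0.59 (-0.93 to -0.24).

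Membrane-type MMPs are anchored at the cell surface, and Mmp14 (MT1-MMP) is known as a collagenase and as the activator of pro-MMP2, for which it uses TIMP2 as a bridge. Mmp14 had 681 CPM (650 to 713) in AD and 583 CPM (536 to 633) in WT fibroblast-like cells, from 1800 and 569 UMIs. It was found in 81.3% of AD and 83.4% of WT fibroblast-like cells, against 1.30% and 1.33% of B-like cells. The ratio was 0.22 (0.09 to 0.36) on the log2 scale, below the 2-fold limit used here. Mmp16 (MT3-MMP), which also activates pro-MMP2, had 37.1 CPM (30.1 to 45.2) in AD and 110 CPM (89.9 to 133) in WT fibroblast-like cells, from 98 and 107 UMIs. Its log2 ratio of -1.56 (-1.98 to -1.16) was the lowest of the family in this class. A single WT cell held 21 of the 107 Mmp16 UMIs, and with the richest cell left out of each library the ratio was -1.34.

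Stromelysin-type MMPs cut proteoglycans, laminin and other non-fibrillar substrates. Mmp3 (stromelysin-1) had 17.0 CPM (12.4 to 22.8) in AD and 3.08 CPM (0.634 to 8.99) in WT fibroblast-like cells, from 45 UMIs in 22 AD cells and 3 UMIs in 3 WT cells. The log2 ratio of 2.26 (0.83 to 4.80) was the highest of the class, and it turned to -0.25 when every cell was thinned to 1000 UMIs. Mmp11 (stromelysin-3) had 34.8 CPM (28.1 to 42.7) in AD and 41.0 CPM (29.3 to 55.9) in WT. Mmp23, a small type II membrane enzyme, had 99.5 CPM (87.8 to 112) in AD and 94.3 CPM (76.0 to 116) in WT. The last 2 genes differed by less than their counting intervals.

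A gene was called higher or lower where its level differed at least 2-fold between the libraries and at least 30 UMIs were counted over both. In fibroblast-like cells 21 of the 50 genes had that many UMIs, and 1 of them, Mmp3, was called higher in AD, against 3.26% of all 9643 genes measured in the class. 1 gene, Mmp16, was called lower, against 1.75% of all genes. The median log2 ratio of the 21 genes was 0.13, beside -0.01 over all measured genes. With so few members called, the counts do not set the family apart from the background.

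**Figure D3:**
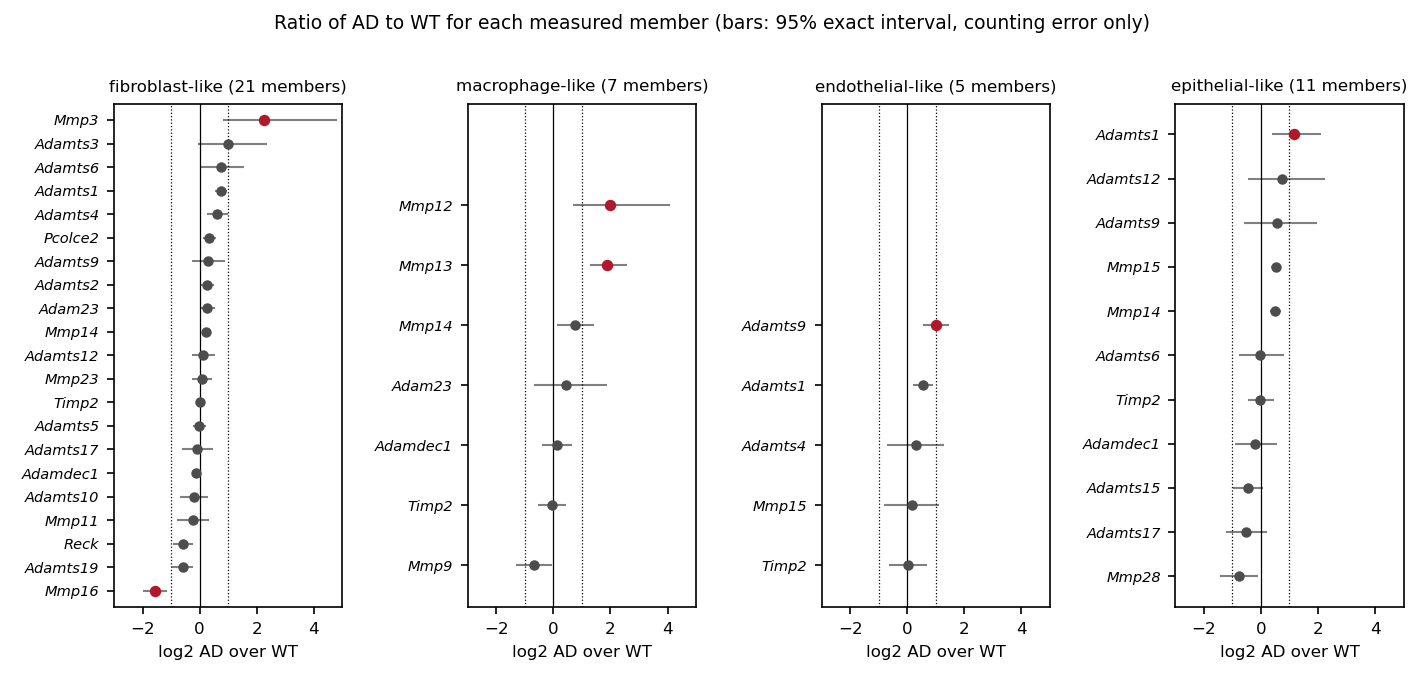
Ratio of AD to WT level on the log2 scale (horizontal axis) for each member with at least 30 UMIs over both libraries, by class; points are ratios with 0.5 counts added, bars are exact 95% intervals for counting error, dotted lines mark 2-fold and red points lie beyond it. Mmp3 and Mmp16 lie beyond 2-fold in fibroblast-like cells, Mmp12 and Mmp13 in macrophage-like cells, Adamts9 in endothelial-like cells and Adamts1 in epithelial-like cells.

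The procollagen N-proteinases Adamts2, Adamts3 and Adamts14 remove the amino propeptide of fibrillar procollagens. Adamts2 had 281 CPM (261 to 302) in AD and 233 CPM (203 to 265) in WT fibroblast-like cells, a log2 ratio of 0.27 (0.05 to 0.49), and was found in 353 of 651 AD and 111 of 211 WT cells. Adamts3 had 45 UMIs in AD and 8 in WT, a log2 ratio of 0.98 (-0.05 to 2.35), just inside the 2-fold limit. Adamts14 had 23 UMIs in AD and 6 in WT and was not measured by the 30-UMI rule. Pcolce2, an enhancer of the C-proteinase that cuts the other end of procollagen, had 270.4 CPM (251 to 291) in AD and 215 CPM (187 to 247) in WT.

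The proteoglycanase ADAMTS genes differed in how their libraries compared. Adamts1, which cuts versican and aggrecan, had 373 CPM (350.4 to 397) in AD and 224 CPM (195 to 255) in WT fibroblast-like cells, a log2 ratio of 0.74 (0.53 to 0.96). Adamts4, an aggrecanase, had 127 CPM (114 to 141) in AD and 82.0 CPM (65.0 to 102) in WT, a log2 ratio of 0.62 (0.28 to 1.00). Both ratios lay above their counting error and below 2-fold. Adamts5, the other main aggrecanase, had 219 CPM (202 to 238) in AD and 221 CPM (193 to 253) in WT. Adamts9 had 45.4 CPM (37.6 to 54.3) in AD and 36.9 CPM (25.9 to 51.1) in WT. These 2 genes did not differ beyond counting error over the class as a whole.

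Of the remaining ADAMTS genes measured in fibroblast-like cells, Adamts10, known for its part in fibrillin microfibrils, had 48.0 CPM in AD and 55.4 CPM in WT. Adamts6, whose known role is in heart development in the mouse, had 33.3 CPM in AD and 19.5 CPM in WT. Adamts12 had 79.1 CPM in AD and 71.8 CPM in WT, and Adamts17 had 38.6 CPM in AD and 41.0 CPM in WT. Adamts19 had 68.1 CPM (58.5 to 78.8) in AD and 103 CPM (83.4 to 125) in WT, a log2 ratio of -0.59 (-0.95 to -0.22), with 18 of its 100 WT UMIs in 1 cell. None of the 5 passed the 2-fold limit.

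The fibroblast-like class held 4 clusters, and several genes were at far higher levels in some of them than in others in both libraries. Cluster 3, led by Pi16, Pcolce2 and C3, had 376 AD and 92 WT cells. Cluster 6, led by Adamdec1, Igfbp3 and Cxcl13, had 224 AD and 74 WT cells. Cluster 20, led by Sox6, Procr and Col4a5, had 31 AD and 23 WT cells, and cluster 21, led by Ptn, Kcnn3 and Fxyd6, had 20 AD and 22 WT cells. Pcolce2 and Adamdec1 led their clusters although neither had been used to form them.

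Adamdec1, a secreted metalloproteinase-like protein known from the gut lamina propria, had 3269 CPM (3161 to 3380) in AD and 3482 CPM (3299 to 3672) in WT cells of cluster 6. In cluster 20 it had 2965 CPM (2712 to 3235) in AD and 2505 CPM (2193 to 2850) in WT. In cluster 3 it had 5.29 CPM (2.13 to 10.9) in AD and 2.95 CPM (0.0748 to 16.5) in WT, and in cluster 21 it had no UMI in either library. The gene was thus high in clusters 6 and 20 and near or at 0 in clusters 3 and 21, in both libraries. Within cluster 6 it was found in 215 of 224 AD and 72 of 74 WT cells, with a log2 ratio of -0.09 (-0.18 to 0.00). An unnamed cluster of 175 AD and 29 WT shallow cells, led by Cxcl13 and Adamdec1, held another 567 AD and 141 WT UMIs of the gene. It was kept apart because its relative depth was under 1 part in 3 and no listed fibroblast marker was among its 10 leading genes. Its cells had medians of 1222 and 1240 UMIs and carried epithelial markers at 6511 and 6482 CPM.

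Adam23, a catalytically inactive ADAM that binds integrins and Lgi proteins, followed cluster 6 alone among the large fibroblast clusters. It had 443 CPM (404 to 485) in AD and 333 CPM (278 to 396) in WT cells of cluster 6. In cluster 3 it had 19.7 CPM (12.8 to 28.8) in AD and 38.4 CPM (20.4 to 65.7) in WT, and in cluster 20 it had 35.1 CPM in AD and 21.7 CPM in WT. Of the cells of cluster 6 with an Adam23 UMI, 165 of 170 in AD and 51 of 52 in WT also had an Adamdec1 UMI. Nearly all cells of the cluster had one, 215 of 224 in AD and 72 of 74 in WT, so these shares say little about the pair. Outside the 4 classes, Adam23 was seen in glia-like cells at 656 CPM (241 to 1429) in the 3 AD cells and 810 CPM (652 to 994) in the 35 WT cells.

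Pcolce2 had the opposite placement. In cluster 3 it had 531 CPM (492 to 572) in AD and 582 CPM (503 to 669) in WT. It had 4.75 CPM in AD and 0 in WT in cluster 6, 0 in both libraries in cluster 20, and 82.6 CPM in AD and 84.2 CPM in WT in cluster 21. Over the whole class the log2 ratio of Pcolce2 was 0.33 (0.10 to 0.56), while within cluster 3 it was -0.14 (-0.36 to 0.10). Cluster 3 made up 376 of 651 fibroblast-like cells in AD and 92 of 211 in WT.

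**Figure D4:**
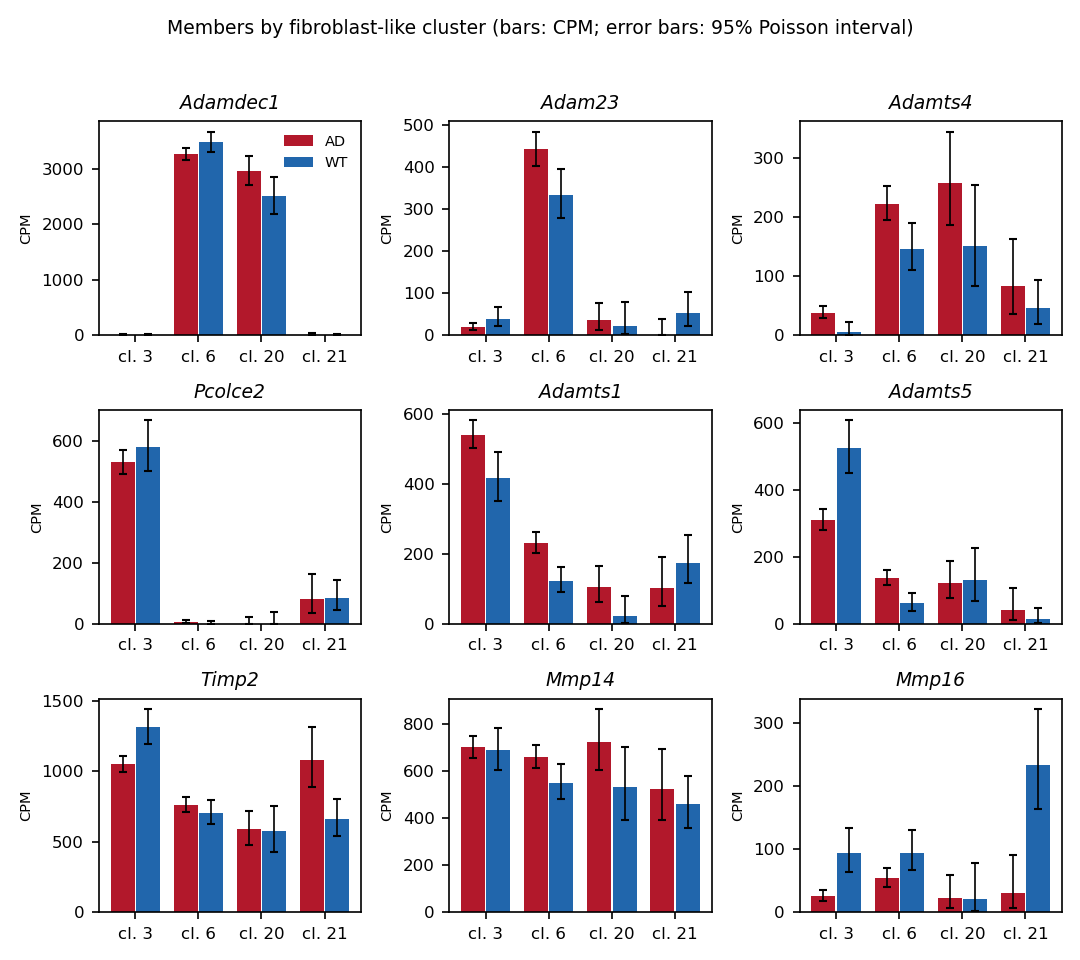
CPM (vertical axes, starting at 0) of 9 members in the fibroblast-like clusters 3, 6, 20 and 21 (horizontal axes), AD left of WT; error bars are 95% Poisson intervals. Adamdec1 is high in clusters 6 and 20, Adam23 in cluster 6 and Pcolce2 in cluster 3 in both libraries, whereas Timp2 and Mmp14 are present in all 4 clusters.

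The aggrecanases split between the same clusters. Adamts4 had 222 CPM (195 to 253) in AD and 146 CPM (111 to 189) in WT in cluster 6, and 257 CPM (187 to 345) in AD and 152 CPM (83.0 to 255) in WT in cluster 20. In cluster 3 it had 37.8 CPM (28.1 to 49.8) in AD and 5.91 CPM (0.715 to 21.3) in WT, from 50 and 2 UMIs. The log2 ratio of Adamts4 was 0.59 (0.18 to 1.05) in cluster 6 and 0.73 (-0.13 to 1.74) in cluster 20, the second not clear of counting error. In cluster 3 it was 2.37 (0.75 to 5.76) and rested on 2 WT UMIs.

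Adamts5 had 311 CPM (281 to 342) in AD and 526 CPM (451 to 609) in WT in cluster 3, a log2 ratio of -0.76 (-1.02 to -0.50). In cluster 6 it had 137 CPM (115 to 161) in AD and 61.5 CPM (39.4 to 91.6) in WT, a log2 ratio of 1.13 (0.52 to 1.84). The ratio near 0 over the whole class thus combined a lower level in AD in one cluster with a higher level in the other. Cluster 20 had 123 CPM in AD and 130 CPM in WT. The richest single cells held 30 of 411 AD and 31 of 178 WT UMIs in cluster 3, and 8 of 144 AD and 3 of 24 WT UMIs in cluster 6.

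Adamts1 had 541 CPM (502 to 583) in AD and 416 CPM (351 to 491) in WT in cluster 3, and 231 CPM (203 to 262) in AD and 123 CPM (90.7 to 163) in WT in cluster 6. Its ratios of 0.37 (0.12 to 0.65) and 0.89 (0.45 to 1.38) had the same direction in both clusters. In cluster 20 Adamts1 had 105 CPM (62.4 to 166) in AD and 21.7 CPM (2.63 to 78.4) in WT, from 18 and 2 UMIs. The log2 ratio there was 2.00 (0.22 to 5.43). In cluster 21 Adamts1 ran the other way, at 103 CPM (49.5 to 190) in AD and 175 CPM (115 to 254) in WT, with overlapping intervals. Adamts1 and Adamts5 are neighbours on chromosome 16. In cluster 3, 104 of the 151 AD cells and 31 of the 47 WT cells with an Adamts5 UMI also had an Adamts1 UMI. Among all cells of that cluster, 218 of 376 in AD and 58 of 92 in WT had an Adamts1 UMI. In cluster 6, 27 of 71 AD and 5 of 18 WT cells with Adamts5 had Adamts1. Among all cells of cluster 6, 107 of 224 in AD and 26 of 74 in WT had it. Whether the genes were found together more often than their separate rates give was not tested.

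Timp2, close between the libraries over the class as a whole, was less even within its clusters. In cluster 3 Timp2 had 1053 CPM (999 to 1110.0) in AD and 1314 CPM (1195 to 1442) in WT, a log2 ratio of -0.32 (-0.47 to -0.16). In cluster 21 it had 1084 CPM (887 to 1312) in AD and 660.4 CPM (538 to 802) in WT, a log2 ratio of 0.72 (0.31 to 1.12), with 22 of its 105 AD UMIs in 1 cell. In cluster 6 the ratio was 0.10 (-0.10 to 0.31), and in cluster 20 it was 0.03 (-0.45 to 0.55).

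Mmp16 was lower in AD in both large clusters. It had 25.7 CPM (17.8 to 35.9) in AD and 94.5 CPM (64.7 to 133) in WT in cluster 3, and 54.1 CPM (41.0 to 70.1) in AD and 94.9 CPM (66.8 to 131) in WT in cluster 6. In the small cluster 21 it had 3 UMIs in AD and 36 in WT, 21 of them in 1 cell. The within-cluster log2 ratios were -1.88 (-2.62 to -1.14), -0.82 (-1.43 to -0.17) and -2.71 (-5.26 to -1.25), so the ratio in cluster 6 lay inside the 2-fold limit.

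The 45 AD UMIs of Mmp3 came from several clusters, 16 of them from cluster 3, 18 from cluster 6 and 11 from cluster 21. The WT library had 2, 0 and 0 UMIs in those clusters and 1 UMI in cluster 20. Its near relative Mmp10 (stromelysin-2) had 6 UMIs in AD and 7 in WT over the class, the first all in cluster 6 and the second all in cluster 20.

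Macrophages are known to make MMPs with narrow expression: Mmp12 (macrophage elastase), Mmp9 (gelatinase B) and, in the mouse, Mmp13, the main interstitial collagenase of rodents. In macrophage-like cells 7 of the 50 genes were measured. Mmp13 had 253 CPM (219 to 291) in AD and 68.2 CPM (43.2 to 102) in WT, from 194 UMIs in 33 of 200 AD cells and 23 UMIs in 5 of 55 WT cells. The log2 ratio was 1.87 (1.27 to 2.59). Of all Mmp13 UMIs in kept cells, 94.2% (90.0 to 97.0%) in AD and 85.2% (66.3 to 95.8%) in WT were in macrophage-like cells. No B-like cell had a Mmp13 UMI, which allows a share of cells with a UMI of up to 0.651% in AD and 1.33% in WT. At the median depths of 1991 and 2498 UMIs of these cells, that says nothing of expression below 1 UMI per cell.

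The cells with Mmp13 were few and uneven. The richest AD cell held 51 UMIs and the richest 5 held 104 of 194, or 53.6%, while the 5 WT cells held all 23. Leaving out the richest cell of each library gave a log2 ratio of 2.29. With the mitochondrial limit at 10% it was 0.90, below 2-fold, and as a mean over cells it was 1.03. The intervals treat UMIs as independent, so they are too narrow for a gene held by so few cells.

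Mmp12 had 52.2 CPM (37.3 to 71.1) in AD and 11.9 CPM (3.23 to 30.3) in WT, from 40 UMIs in 12 cells and 4 UMIs in 2 cells. Its log2 ratio was 1.99 (0.67 to 4.08). The richest AD cell held 14 of the 40 Mmp12 UMIs and the richest 5 held 33, or 82.5%. Mmp9 pointed the other way, at 71.8 CPM (54.1 to 93.5) in AD and 116 CPM (82.2 to 158) in WT, a log2 ratio of -0.69 (-1.30 to -0.06). In WT, 5 of the 7 cells with Mmp9 held 37 of 39 UMIs. The cells with Mmp13 overlapped partly with the others: 7 of the 12 AD and 1 of the 2 WT cells with Mmp12 had Mmp13, and so did 6 of the 26 AD and 1 of the 7 WT cells with Mmp9. A single AD cell and no WT cell had both Mmp12 and Mmp9. Among all macrophage-like cells, 33 of 200 in AD and 5 of 55 in WT had Mmp13. The cells with Mmp13 were also deeper than the others, by the medians given below, so any gene was more readily found in them. Whether any pair was found together more or less often than their separate rates give was not tested.

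**Figure D5:**
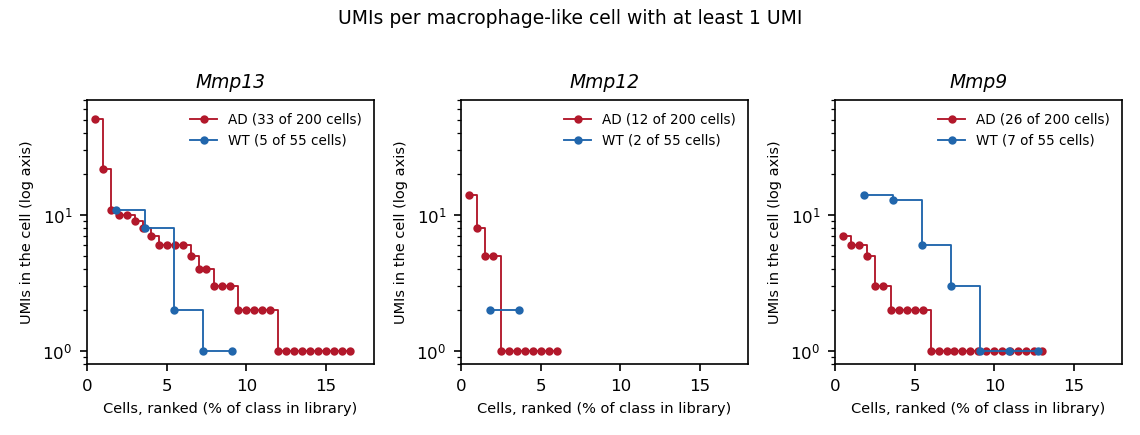
UMIs in each macrophage-like cell with at least 1 UMI of Mmp13, Mmp12 or Mmp9 (vertical axis, log scale), ranked from the richest and placed by rank as a percentage of the macrophage-like cells of that library (horizontal axis), for AD and WT. The 33 AD cells with Mmp13 range from 1 to 51 UMIs and the 5 WT cells from 1 to 11, so a handful of cells sets each level.

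Mmp14 had 136 CPM (111 to 164) in AD and 80.0 CPM (52.7 to 116) in WT macrophage-like cells, a log2 ratio of 0.74 (0.14 to 1.43). It was found in 23 of the 33 AD and 4 of the 5 WT cells with Mmp13. Among all cells of the class, 44 of 200 in AD and 6 of 55 in WT had Mmp14. Adamdec1 had 145 CPM (119 to 174) in AD and 133 CPM (97.3 to 178) in WT. Its WT value came from 3 cells, 1 of which held 33 of 45 UMIs. Of the 22 AD cells and 3 WT cells with Adamdec1, 12 and 3 also had Mmp13. Adam23 had 26 UMIs in 12 AD cells and 8 UMIs in 1 WT cell.

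In this class 2 of the 7 measured genes, Mmp13 and Mmp12, were called higher in AD, against 7.55% of all 5046 measured genes. None of the 7 was called lower, against 4.22% of all genes. The median log2 ratio was 0.46 for the 7 genes, beside 0.02 over all measured genes. The macrophage-like cells of the 2 libraries differed in makeup: summed dendritic cell markers were at 587 CPM in AD and 1117 CPM in WT, with 10 of 10 markers seen in both. Summed macrophage markers were at 14871 CPM in AD and 12164 CPM in WT. Among cells with at least 2 of the 3 C1q genes, which mark macrophages, 131 in AD and 32 in WT, the log2 ratios were 1.27 for Mmp13, 2.25 for Mmp12 and -1.36 for Mmp9.

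Cells with Mmp13 carried more C1q RNA than the other macrophage-like cells of the same library, at 6296 CPM (5977 to 6628) in AD and 7863 CPM (7047 to 8747) in WT. The cells without Mmp13 had 4175 CPM (4003 to 4352) in AD and 3416 CPM (3208 to 3634) in WT. Other single macrophage markers did not all follow. Mrc1 had 925 CPM (805 to 1057) in the AD cells with Mmp13 and 1251 CPM (1158 to 1350) in those without. In WT it had 907 and 930 CPM, in the same order. Lyz2 had 3859 and 4180 CPM in AD and 4629 and 3698 CPM in WT. Cd14 had 255 and 264 CPM in AD and 23.3 and 153 CPM in WT. The WT cells with Mmp13 numbered 5. Summed dendritic markers stood at 410.5 CPM in the AD and 442 CPM in the WT cells with Mmp13, and at 664 CPM in the AD and 1216 CPM in the WT cells without it. Among these markers, Ccr7 had 4.32 CPM in the AD cells with Mmp13 and 84.2 CPM in those without. In WT it had 0 and 153 CPM. Siglech ran the other way, at 30.2 and 24.3 CPM in AD and 69.8 and 47.5 CPM in WT. The cells with Mmp13 were also deeper, with medians of 4831 UMIs in AD and 7525 in WT, against 2203 and 3380 for the cells without it, so a UMI of any gene was more readily found in them.

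Mmp13, Mmp12 and Mmp3 lie in 1 run of 10 neighbouring MMP genes on mouse chromosome 9, in the order Mmp13, Mmp12, Mmp1b, Mmp3, Mmp1a, Mmp10, Mmp8, Mmp27, Mmp20 and Mmp7. They were the only 3 genes of the run with at least 30 UMIs in a class. Each was called higher in AD in its class, against 7.55% of all measured genes in macrophage-like and 3.26% in fibroblast-like cells. Mmp12, with 40 AD and 4 WT UMIs, and Mmp3 reached that minimum only through the AD library, so the minimum itself favoured such a call. The call of Mmp3 was lost with thinned cells, and that of Mmp13 with the mitochondrial limit at 10%. The other genes of the run had between 1 and 18 UMIs over the kept cells of both libraries. Promoters of several genes of this run are known to hold an AP-1 site, the sequence bound by Fos and Jun proteins. The upstream sequences of the 3 genes are shown for that motif. They are the 150 bases before the start in the RefSeq promoter table (build GRCm38.p6, plus strand), at chr9:7272364-7272513 for Mmp13, chr9:7347224-7347373 for the Mmp12 entry with the motif and chr9:7445672-7445821 for Mmp3. Capitals mark the motif TGANTCA, and the last base is the one before the start.
Mmp13: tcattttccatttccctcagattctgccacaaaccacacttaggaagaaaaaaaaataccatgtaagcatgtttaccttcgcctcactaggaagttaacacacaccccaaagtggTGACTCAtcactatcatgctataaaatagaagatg
Mmp12: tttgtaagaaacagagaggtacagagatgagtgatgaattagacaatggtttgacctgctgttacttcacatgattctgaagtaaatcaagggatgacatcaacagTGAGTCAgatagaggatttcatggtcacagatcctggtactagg
Mmp3: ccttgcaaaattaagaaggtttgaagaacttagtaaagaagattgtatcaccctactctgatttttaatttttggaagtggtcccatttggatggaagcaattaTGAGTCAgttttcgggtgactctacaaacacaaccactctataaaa

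The motif, searched on both strands in the 250 bases before the start, lay 35 bases upstream in Mmp13, 44 in that Mmp12 entry and 46 in Mmp3. Among all 32851 RefSeq promoters 2217 (6.75%) held it, and among the 38 promoter entries of 35 of the 50 genes 8 did (21.1%). All 8 belonged to the run on chromosome 9: Mmp13, 1 of the 2 Mmp12 entries, Mmp1b, Mmp3, Mmp1a, Mmp10, Mmp20 and 1 of the 2 Mmp7 entries. Genes of the run that hold the motif were called higher in AD in one class or were at a few UMIs. Fos itself had 4096 CPM in AD and 5752 CPM in WT macrophage-like cells, a log2 ratio of -0.49 (-0.57 to -0.41). Junb had 1842 CPM in AD and 1073 CPM in WT, a log2 ratio of 0.78 (0.61 to 0.95). The log2 ratios of Jun and Fosb were 0.27 and 0.90. These 4 AP-1 genes were chosen after their values were seen, and they differed in direction. Their levels in fibroblast-like cells, where Mmp3 was called, are not given here. A match of letters shows no binding, and whether AP-1 had a part in the MMP levels was not tested.

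In endothelial-like cells the measured genes were the proteoglycanases Adamts1, Adamts4 and Adamts9, the membrane-type Mmp15 and Timp2. Adamts9, a versican-cutting enzyme also known to limit new vessel growth, had 451 CPM (369 to 545) in AD and 224 CPM (175 to 282) in WT, from 106 and 72 UMIs. It was found in 36 of 83 AD and 34 of 101 WT cells, at median depths of 2043 and 2424 UMIs, against 2 of 461 AD and 2 of 226 WT B-like cells. The log2 ratio of 1.01 (0.57 to 1.46) lay at the 2-fold limit, and it was 0.99 with the richest cell of each library left out, 0.95 as a mean over cells and 0.92 with each cell thinned to 1000 UMIs, all below it. Adamts1 had 591 CPM (497 to 698) in AD and 401 CPM (334 to 476) in WT, a log2 ratio of 0.56 (0.21 to 0.92), with 25 of its 129 WT UMIs in 1 cell. Of the cells with Adamts9, 27 of 36 in AD and 19 of 34 in WT also had Adamts1.

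The other endothelial values were close. Mmp15 (MT2-MMP) had 76.6 CPM (45.4 to 121) in AD and 68.3 CPM (42.8 to 103) in WT. Adamts4 had 76.6 CPM (45.4 to 121) in AD and 62.1 CPM (37.9 to 95.9) in WT. Neither differed beyond its counting interval. Of the 5 measured genes 1, Adamts9, was called higher in AD, against 4.04% of all 3561 measured genes, and none lower, against 3.93%. The median log2 ratio was 0.31, beside -0.02 over all genes.

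Other RNA moved with these endothelial values. Fibroblast markers summed to 940 CPM in AD and 168 CPM in WT endothelial-like cells, with 10 of 13 markers seen in each. Smooth muscle and pericyte markers summed to 2140 CPM in AD and 578 CPM in WT, with 10 of 11 seen in each, and lymphatic endothelial markers to 1174 CPM in AD and 2525 CPM in WT, with 5 of 6 seen in each. Adamts9 itself had 301 CPM in AD and 291 CPM in WT smooth-muscle-like cells, and Adamts1 had 246 CPM in AD and 145 CPM in WT. Of 18 genes known to be induced by tissue dissociation, 2 (Hspa1a and Nr4a1) were at least 2-fold higher in AD endothelial-like cells, and the median log2 ratio of the 18 was 0.64. It was 0.21 in fibroblast-like, 0.02 in macrophage-like and 0.24 in epithelial-like cells. The part of these in the Adamts9 and Adamts1 values was not tested.

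In epithelial-like cells 11 of the 50 genes were measured, most at a few CPM. The clusters that made up this class differed between the libraries. Cluster 4, led by Foxq1 and Htr4, had 399 AD and 5 WT cells, and cluster 8, led by Tgm3 and Slc37a2, had 272 AD and 14 WT cells. Cluster 16, led by 1700003I22Rik and Cdca3, had 1 AD and 132 WT cells. The goblet-led cluster 2, with 475 AD and 108 WT cells, the Krt20 and Car1 cluster 9, with 198 and 66, and the enteroendocrine-type cluster 17, with 76 and 54, were present in both. So was cluster 7, led by Itga9 and Zc3h7a, with 120 AD and 173 WT cells. It was the largest WT cluster of the class and the shallowest, with medians of 1019 UMIs in AD and 1909 in WT, and 12 of 16 epithelial markers were each found in at least 10% of its cells.

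Mmp15, a membrane-type enzyme, had 61.3 CPM (57.8 to 65.0) in AD and 42.4 CPM (38.2 to 47.0) in WT epithelial-like cells, from 1115 and 361 UMIs. These cells held 94.3% of all Mmp15 UMIs of kept cells in AD and 88.0% in WT. The log2 ratio was 0.53 (0.36 to 0.71) over the class. Within the goblet-led cluster 2 it was 0.18 (-0.18 to 0.56), with 46.9 CPM in AD and 41.2 CPM in WT, and within cluster 17 it was -0.06 (-0.86 to 0.76), with 57.6 CPM in AD and 59.9 CPM in WT. In cluster 9 Mmp15 had 106 CPM (94.2 to 118) in AD and 59.3 CPM (47.0 to 73.7) in WT, a log2 ratio of 0.83 (0.47 to 1.21). In cluster 7 Mmp15 had 35.9 CPM in AD and 48.6 CPM in WT, from 7 and 50 UMIs, a log2 ratio of -0.35 (-1.82 to 0.71), and in cluster 8 it had 62.9 CPM in AD and 61.0 CPM in WT. Of these 5 clusters, only cluster 9 had a ratio clear of counting error. With cluster 7 left out, the class ratio was 0.57. Clusters 4 and 16 lay almost wholly in 1 library each. Mmp15 had 52.7 CPM in the AD cells of cluster 4, from 272 UMIs. In the WT cells of cluster 16 it had 30.9 CPM, from 106 UMIs. The class ratio, with or without cluster 7, thus pools clusters with unlike shares of the 2 libraries.

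Mmp14 had 52.4 CPM (49.1 to 55.8) in AD and 36.9 CPM (32.9 to 41.2) in WT epithelial-like cells, a log2 ratio of 0.50 (0.32 to 0.70). In cluster 2 it had 68.2 CPM in AD and 55.1 CPM in WT, a log2 ratio of 0.30 (-0.0042 to 0.63), and in cluster 9 it had 22.4 CPM in AD and 19.3 CPM in WT, a log2 ratio of 0.20 (-0.46 to 0.93). Neither of these ratios was clear of counting error. In cluster 7 Mmp14 ran the other way, at 10.3 CPM (1.24 to 37.1) in AD and 43.8 CPM (31.9 to 58.6) in WT, from 2 and 45 UMIs, a log2 ratio of -1.79 (-5.18 to -0.16). It had 55.6 CPM in AD and 39.9 CPM in WT in cluster 17, a log2 ratio of 0.46 (-0.43 to 1.42), and 28.4 CPM in AD and 12.2 CPM in WT in cluster 8, from 101 and 3 UMIs. With cluster 7 left out, the class ratio was 0.55. Mmp14 had 68.9 CPM in the AD cells of cluster 4, from 356 UMIs, and 32.9 CPM in the WT cells of cluster 16, from 113. These clusters lay almost wholly in 1 library each, so this class ratio also pools clusters with unlike shares. Mmp28 (epilysin), known from epithelia, had 2.53 CPM (1.85 to 3.37) in AD and 4.35 CPM (3.06 to 5.99) in WT. Adamts15, an aggrecanase, had 4.62 CPM (3.68 to 5.72) in AD and 6.34 CPM (4.77 to 8.28) in WT.

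Adamts1 had 4.07 CPM (3.20 to 5.11) in AD and 1.76 CPM (0.986 to 2.91) in WT epithelial-like cells, from 74 and 15 UMIs, a log2 ratio of 1.17 (0.39 to 2.12). In the enteroendocrine-type cluster 17 it had 65.5 CPM (45.1 to 92.0) in AD and 8.87 CPM (2.42 to 22.7) in WT, from 33 and 4 UMIs, with 10 of the AD UMIs in 1 cell. In the goblet-led cluster 2 it had 4.14 CPM in AD and 4.12 CPM in WT, a log2 ratio of -0.053 (-1.20 to 1.37). With the mitochondrial limit at 10% the class ratio was -0.83, so both the call and its direction were lost. Fibroblast markers, with 13 of 13 seen in AD and 11 of 13 in WT, summed to 72.2 CPM in AD and 22.1 CPM in WT epithelial-like cells. The part of stray fibroblast RNA in the Adamts1 value was not tested. Of the 11 measured genes 1, Adamts1, was called higher in AD, against 3.26% of all 13283 measured genes, and none lower, against 5.21%. The median log2 ratio was -0.02, beside -0.04 over all genes.

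Other genes that act with these enzymes mostly stayed within 2-fold in fibroblast-like cells. Of 62 measured over 7 lists, 2 were called higher in AD and none lower, against 3.26% and 1.75% of all genes in the class. Of 14 measured matrix substrates none passed 2-fold in either direction. Decorin (Dcn) had 16149 CPM in AD and 18156 CPM in WT, lumican (Lum) had 2320 CPM in AD and 2945 CPM in WT, and biglycan (Bgn) had 1963 CPM in AD and 1449 CPM in WT. None of 13 measured genes of collagen processing passed it either. Of 5 measured ADAMTS-like genes, which resemble ADAMTS enzymes without the protease, 1 passed: Adamtsl2, a fibrillin-binding protein, had 20.4 CPM in AD and 7.18 CPM in WT, from 54 and 7 UMIs. Adamtsl1 had 491 CPM in AD and 319 CPM in WT, a log2 ratio of 0.62 (0.44 to 0.80).

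None of 5 measured genes of the plasminogen system, none of 6 other ADAM genes and none of 10 measured regulators of MMPs passed 2-fold in fibroblast-like cells. Adam17, the sheddase of tumour necrosis factor, came near it, at 92.7 CPM in AD and 47.2 CPM in WT, a log2 ratio of 0.96 (0.52 to 1.46). Of 9 cathepsins and cystatins 1 passed, cathepsin S (Ctss), a protease of macrophages, at 20.0 CPM in AD and 4.10 CPM in WT from 53 and 4 UMIs. Summed macrophage markers in the same cells were at 265 CPM in AD and 86.1 CPM in WT, with 14 and 11 of 14 seen. Their part in the Ctss value was not tested.

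In macrophage-like cells 30 genes of the same lists were measured, and 1 was called higher in AD and 3 lower, against 7.55% and 4.22% of all genes in the class. Of 7 measured MMP regulators 1 was called higher in AD: thrombospondin 1 (Thbs1), which binds MMPs and activates TGF-β, had 96.6 CPM in AD and 11.9 CPM in WT, from 74 and 4 UMIs, a log2 ratio of 2.87 (1.61 to 4.94). Of 8 cathepsins and cystatins 1 was called lower, the inhibitor cystatin C (Cst3), at 2170 CPM in AD and 4815 CPM in WT, a log2 ratio of -1.15 (-1.25 to -1.05). Of 6 other ADAM genes 2 were called lower, Adam8 at 54.8 CPM in AD and 121 CPM in WT and Adam19 at 110 CPM in AD and 237 CPM in WT. The cysteine protease cathepsin B (Ctsb) had 2907 CPM in AD and 2205 CPM in WT, and cathepsin S had 1667 CPM in AD and 1639 CPM in WT.

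In endothelial-like cells 34 genes of these lists were measured, and 4 were called higher in AD and 4 lower, against 4.04% and 3.93% of all genes in the class. The higher ones were Adamtsl4, a fibrillin-binding protein, Serpine2, an inhibitor of plasminogen activators, Dcn and fibronectin (Fn1), and Dcn, a fibroblast marker, had 183 CPM in AD and 52.8 CPM in WT. The lower ones were Tll1, Nid1, Tnxb and Thbs1, and Nid1, which links laminin to type IV collagen in basement membranes, had 80.8 CPM in AD and 180 CPM in WT. In epithelial-like cells 53 genes of the lists were measured, and 5 were called higher in AD and 4 lower, against 3.26% and 5.21% of all genes in the class. Of 13 measured matrix substrates Dcn, Bgn, Lum and Lamb1 were higher, the first 3 known as fibroblast products, and Vcan and Nid2 were lower. Dcn had 25.5 CPM in AD and 6.70 CPM in WT, and Vcan, the versican gene, had 1.37 CPM in AD and 3.05 CPM in WT. The other gene called higher was the collagen chaperone Serpinh1, and the other lower ones were Serpinf2, an inhibitor of plasmin, and the cytokine Il1b.

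Members seen mainly outside the 4 classes were few. Adamts6 had 141 CPM (120 to 166) in AD and 70.3 CPM (53.2 to 91.0) in WT lymphocyte-like cells, from 155 and 57 UMIs, and 76.7 CPM in AD and 38.8 CPM in WT B-like cells. Mmp17 (MT4-MMP) had most of its WT UMIs, 29 of 43, in the 35 glia-like WT cells. In AD, the 3 glia-like cells held 2 of its 44 UMIs. The other genes with at least 30 UMIs over all kept cells but fewer in each of the 4 classes were Mmp2, Mmp21, Mmp25, Adamts7, Adamts14, Adamts18 and Adamts20, with 34 to 222 UMIs. The 11 genes with 1 to 29 UMIs were Mmp1a, Mmp1b, Mmp7, Mmp8, Mmp10, Mmp20, Mmp24, Mmp27, Adamts8, Adamts13 and Adamts16.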

How the data were processed

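The authors deposited 1 matrix of UMI counts per library, with genes and barcodes; the submitters' processing notes name Cell Ranger 3.0.1, STAR, Seurat 3.0.2 and the mm10 build. The annotation release was not given in the sources used here. The deposited counts are raw and already limited to called barcodes, none under 500 UMIs.

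Cells had to reach 500 UMIs and 200 detected genes, with no more than 25% of UMIs from mitochondrial genes. Scrublet, run in scanpy 1.11.5 with a rate of 0.06, called 3 doublets in each library (0.064% of AD and 0.194% of WT barcodes that passed); so low a share means that it did not work, and doublets may remain. Both libraries were clustered together on 2000 variable genes without the 50 genes described, 30 principal components, 15 neighbours and Leiden resolution 1 (leidenalg 0.10.2), giving 23 clusters. Clusters were named from marker lists with thresholds chosen after seeing the data: at least 3 markers and at least 30% of a list, each at least 4-fold over the other clusters and in at least 10% of cells. The fold rule was not used for epithelial-like clusters, which needed a summed epithelial marker level of 6000 CPM or more and immune markers under 500 CPM; this sum also overrode neuron markers. A cluster stayed unnamed where its relative depth was under 1 part in 3 with none of its markers among its 10 leading genes, or where another list had more. Rebuilt names may differ from the authors'.

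The UMIs of all cells of a class in a library were pooled, and a gene's level is its share of that pool, per 1000000 UMIs (CPM). Ratios are log2 of AD over WT with 0.5 counts added. Intervals are exact Poisson for levels, Clopper-Pearson for shares and exact conditional for ratios, at 95%, and cover counting error only; limits for a count of 0 use 3 counts. Any member could be named; from each pathway list the 3 genes with the most UMIs in fibroblast-like cells and those at least 2-fold apart could be. Members and lists were chosen with earlier results of these data known. The ratio procedure was tested on simulated counts with counting error only and with changes set only in genes of at least 100 UMIs. That test does not cover changes in genes with fewer UMIs or genes held by a few cells. Overlaps used the GENCODE M21 annotation, which held 31350 of the 33083 listed genes, and promoters the RefSeq table for GRCm38.p6. Alternatives covered the UMI minimum, fold, added counts, scaling, per-cell means, thinning, the richest cell, filters and clustering. 5 more were chosen after seeing the data: adding the shallow fibroblast cluster, leaving out the shallowest epithelial cluster, cells with C1q genes, comparing within epithelial clusters, and leaving out Adamdec1. Python 3.11.15 was used with numpy 2.4.6, scipy 1.17.1 and pandas 2.3.3.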

Additional observations from a re-analysis of the deposited data

Results flagged for a closer look

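The aggrecanase gene Adamts5 went opposite ways in the large fibroblast-like clusters: its log2 ratio of AD over WT was -0.76 in cluster 3 and 1.13 in cluster 6. The difference between the clusters was not tested, since each genotype had 1 library.

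The procollagen N-proteinase gene Adamts14 had most of its AD UMIs outside the 4 classes, in plasma-like cells, at 20.4 CPM in AD and 17.2 CPM in WT. These came from 150 UMIs in 118 of 974 AD cells and 8 UMIs in 8 of 56 WT cells.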

How the results depend on the processing

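No paired analysis was possible because each genotype had 1 library and no result came from a test between samples.

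Of 761 values of single members under the alternatives, 670 stayed within the counting interval, 88 moved beyond it and 3 reversed: Mmp3 in fibroblast-like cells thinned to 1000 UMIs (-0.25), and Adamts1 in epithelial-like cells with the mitochondrial limit at 10% (-0.83) and within the goblet-led cluster 2 (-0.053). These 3 do not hold every change of sign between a class and its clusters. Mmp14 and Mmp15 in epithelial cluster 7 and Pcolce2 in fibroblast cluster 3, among others, also had ratios opposite in sign to their class. The cause of these changes was not tested.

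The share of the family's UMIs in fibroblast-like cells, 67.7% in AD and 65.4% in WT, was 80.5% in AD and 71.9% in WT with a mitochondrial limit of 10%, 69.8% and 62.0% with 50%, and 69.9% and 59.8% with none. It was 72.1% in AD and 68.5% in WT with doublets kept, 73.4% and 69.1% at Leiden resolution 0.5, and 62.5% and 62.9% at resolution 2. It was 72.2% in AD and 68.5% in WT with the family among the variable genes, 72.7% and 68.9% with classes from single cells, 73.4% and 69.1% with the shallow cluster added, and 63.0% and 58.9% without Adamdec1.

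The count of members at least 2-fold apart in fibroblast-like cells, 2, was 4 with a minimum of 10 UMIs, 1 with 100, 8 at 1.5-fold, 1 at 3-fold, and 4 as a mean over cells, with thinned cells or with clusters weighted equally. Within cluster 6 it was 1, within cluster 20 it was 0 and within cluster 21 it was 1. In macrophage-like cells the count of 2 was 1 with a minimum of 100 UMIs, 4 at 1.5-fold or as a mean over cells, and 5 without the richest cells. In endothelial-like cells the count of 1 was 2 with a minimum of 10 UMIs or with thinned cells, and 0 at 3-fold, as a mean over cells or without the richest cells. In epithelial-like cells the count of 1 was 5 with a minimum of 10 UMIs, with thinned cells, with a mitochondrial limit of 50% or with clusters of at least 50 cells weighted equally. It was 4 as a mean over cells, with a mitochondrial limit of 10% (all 4 lower in AD) or with none, 3 at 1.5-fold, 2 with the family among the variable genes or without the shallow cluster 7, and 0 with a minimum of 100 UMIs or at 3-fold. No share of all genes called under the same alternatives is given beside these counts. They therefore do not say whether the family moved or all genes did. Depth limits many members: 15 of the 50 had fewer than 30 UMIs over both libraries.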
